A study of Mus musculus with 8 samples.

Results

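The miR-143/miR-145 and miR-199/miR-214 clusters encode microRNAs (miRNAs) known from mesenchymal cells, and their mature forms were chosen by name and followed here in mouse liver. The names were mmu-miR-143-3p, mmu-miR-143-5p, mmu-miR-145a-5p, mmu-miR-145a-3p, mmu-miR-199a-3p, mmu-miR-199a-5p, mmu-miR-199b-5p and mmu-miR-214-3p, written below without the prefix for mouse. Of these 8 names 7 were counted, and miR-145a-3p was not analysed here. The 7 stand for 7 different sequences, out of 443 mature sequences in the table. Livers came from male C57BL/6J mice, an inbred strain, aged 10 to 11 weeks, after 2 weeks on a high-fructose diet (HFrD, 4 samples) or on normal chow (4 samples). By energy, HFrD held 10% fat, 70% carbohydrate and 20% protein, while the sources used here do not state the make-up of the chow. Fructose therefore cannot be told apart from other differences between the diets. The labels call the HFrD group a model of fatty liver and number the samples without stating that each is a separate mouse. Every p-value below is therefore set against the variation among these 4 and 4 samples, part of which may be technical.

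A miRNA gene is transcribed as a long primary transcript from which a hairpin is cut, and either arm of the hairpin (5p or 3p) can become the mature miRNA that guides repression of messenger RNAs through its seed, bases 2 to 8. miR-143 and miR-145 are made from neighbouring hairpins and are best known from smooth muscle cells, pericytes and fibroblasts, where they favour the contractile state. miR-199a and miR-214 are made from the antisense transcript Dnm3os and are studied in hepatic stellate cells, the vitamin A-storing pericytes of the liver that turn into matrix-producing cells in fibrosis. miR-199a-3p has also been described as abundant in human liver as a whole. The samples are bulk liver, so fewer cells of a type and less RNA per cell cannot be told apart, and the cells that made these miRNAs were not identified.

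The mature sequences of the miR-199 and miR-214 arms are shown because they decide what the counts can separate. All are written 5′ to 3′ as deposited, all but miR-199b-5p were matched to the same sequence in RefSeq (GRCm38.p6), and capitals mark the seed.
miR-199a-3p: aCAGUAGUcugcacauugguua
miR-199a-5p: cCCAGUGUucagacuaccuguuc
miR-199b-5p: cCCAGUGUuuagacuaccuguuc
miR-214-3p: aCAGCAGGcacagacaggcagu
miR-214-5p: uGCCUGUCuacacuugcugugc
The sequence of miR-199a-3p is entered in the table with the same counts for Mir199a-1, Mir199a-2 and Mir199b, under the names miR-199a-3p and miR-199b-3p, so its counts belong to 3 loci at once. The 5p arms carry more information: miR-199a-5p and miR-199b-5p share their seed and 22 of 23 bases and differ by C10U, counted from 1 at the 5′ end with the base of miR-199a-5p first. That base separates Mir199b from the 2 Mir199a loci, although the sources used here do not state how reads that match both were assigned. No other sequence in the table had the seed of miR-199a-3p, of the miR-199 5p pair, of miR-214-3p or of miR-214-5p.

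The RefSeq hairpins (GRCm38.p6) show where both arms sit. Capitals mark the 5p arm and then the 3p arm, and the shared 3p arm stands in all 3 miR-199 hairpins.
Mir199a-2, chr1:162217814-162217923, plus strand: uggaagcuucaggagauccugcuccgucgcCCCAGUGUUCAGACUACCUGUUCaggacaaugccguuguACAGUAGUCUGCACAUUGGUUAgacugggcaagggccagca
Mir199a-1, chr9:21496495-21496564, minus strand: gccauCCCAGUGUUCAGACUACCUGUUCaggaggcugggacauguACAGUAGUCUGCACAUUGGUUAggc
Mir199b, chr2:32318460-32318569, plus strand: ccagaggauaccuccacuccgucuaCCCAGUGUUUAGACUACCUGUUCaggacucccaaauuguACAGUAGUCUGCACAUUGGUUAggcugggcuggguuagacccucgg
Mir214, chr1:162223368-162223477, plus strand: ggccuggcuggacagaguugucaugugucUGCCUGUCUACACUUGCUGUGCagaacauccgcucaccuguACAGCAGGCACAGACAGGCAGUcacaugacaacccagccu

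Mir143 and Mir145a lie 1301 bases apart on the minus strand of chromosome 18 (GRCm38), at 61649196 to 61649258 and 61647825 to 61647894. Both fall within the RefSeq span of the long non-coding RNA gene Carmn (61645878 to 61665538), a known host transcript of this pair. Mir199a-2 and Mir214 lie 5444 bases apart on the plus strand of chromosome 1, in annotated exons (GENCODE) of Dnm3os and opposite an intron of Dnm3. Mir199a-1 on chromosome 9 lies opposite an intron of Dnm2, and Mir199b on chromosome 2 lies opposite an intron of Dnm1, so all 3 miR-199 hairpins sit on the strand opposite a dynamin gene.

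The libraries held 1120035 to 1638036 counts each. Levels are given in CPM, counts of a miRNA per 1000000 counts of its library, with library sizes scaled by trimmed mean of M-values (TMM) factors, which ran from 0.972 to 1.13 in HFrD and from 0.894 to 1.02 in chow. The liver-specific miR-122-5p was at 137266 ± 19232 CPM in HFrD and 164714 ± 6310.3 CPM in chow (SD, n = 4 each), a high level for a marker of hepatocytes in both groups. Chow replicate 4 stood apart on the first principal component, at −6.13 against −1.35 to −0.37 in the other chow libraries and 1.53 to 2.91 in HFrD.

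miR-143-3p alone held 95% of the joint counts of the members. It was the 12th most abundant of the 443 sequences, with 0.434% of all counts. Over the 8 libraries miR-143-3p ran from 3628 to 4952 CPM, miR-199a-3p from 112 to 192 CPM and miR-199a-5p from 38.3 to 60.7 CPM. miR-145a-5p followed with 11.7 to 40.3 CPM, miR-199b-5p with 1.89 to 10.3 CPM, and miR-143-5p and miR-214-3p reached at most 3.78 and 3.11 CPM with blanks in some libraries. Neighbours in this order were separated in range down to miR-199a-5p. The ranges of miR-199a-5p and miR-145a-5p overlapped, although miR-199a-5p was the higher in all 8 libraries, and miR-145a-5p stood above miR-199b-5p without overlap. The ranges of miR-199b-5p, miR-143-5p and miR-214-3p overlapped. A mature miRNA is read as a whole tag of about the same length for each member, so no length correction was made, and unequal capture of different sequences, which would bear on levels set between miRNAs, was not tested.

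**Figure D1:**
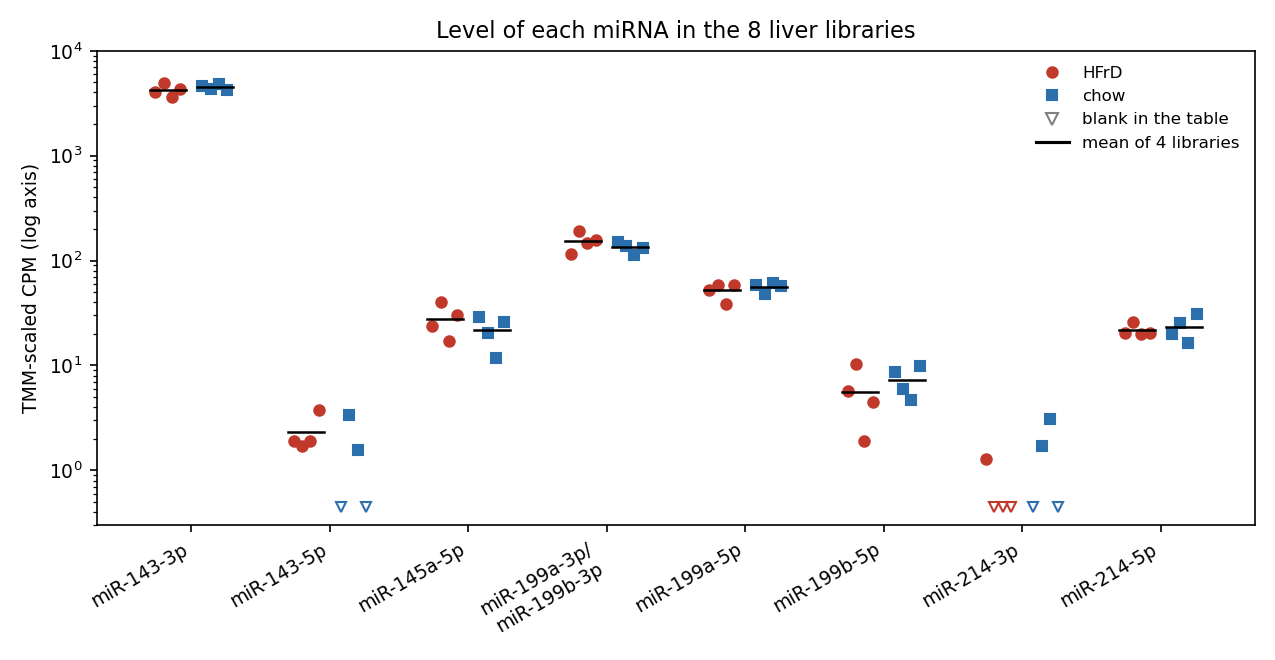
TMM-scaled CPM on a log axis of the 7 members and of miR-214-5p, the other arm of a member, in each of 4 HFrD and 4 chow libraries, with lines at the mean where all 4 libraries had a value and open triangles for blanks. miR-143-3p lies between 3628 and 4952 CPM in every library, far above the rest, and the diets overlap for every miRNA shown.

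miR-143-3p, the main product of the miR-143/miR-145 locus, was at 4033, 4952, 3628 and 4306 CPM in HFrD replicates 1 to 4, against 4595, 4334, 4830.2 and 4258 CPM in chow replicates 1 to 4. The HFrD libraries held both the highest and the lowest value and enclosed the chow libraries. The means were 4229.7 ± 556 CPM in HFrD and 4504 ± 261 CPM in chow (SD, n = 4 each). By edgeR the log2 fold change of HFrD over chow came to −0.09 ± 0.097 (SE; adjusted p = 0.547, edgeR's quasi-likelihood test with Benjamini-Hochberg adjustment), with a 95% interval from −0.30 to 0.11. That interval leaves room for a level up to 1.23-fold lower or 1.08-fold higher in HFrD. The estimate stayed at −0.09 with RLE factors, another scaling, and was 0.03 over library totals, where the median over all miRNAs tested was 0.13. It was −0.18 without HFrD replicate 2 and −0.03 without HFrD replicate 3.

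miR-145a-5p, the only arm of the neighbouring hairpin analysed here and a known regulator of smooth muscle differentiation, rested on far fewer counts. It had 37, 47, 27 and 40 counts in HFrD, against 36, 24, 15 and 29 counts in chow. In CPM these were 23.7, 40.3, 17 and 30.2 in HFrD, against 28.7, 20.4, 11.7 and 25.8 in chow. The highest value was in HFrD and the lowest in chow, and the groups overlapped. The means were 27.8 ± 9.92 CPM in HFrD and 21.6 ± 7.48 CPM in chow (SD, n = 4 each), for which edgeR put the log2 fold change at 0.34 ± 0.29 (SE; adjusted p = 0.488) with a 95% interval from −0.28 to 0.96. A level up to 1.94-fold higher or 1.21-fold lower in HFrD is within that interval. Without HFrD replicate 2 the estimate was 0.12, and without chow replicate 3 it was 0.13. It rose to 0.52 without HFrD replicate 3 and to 0.46 over library totals.

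Although both come from one locus, miR-143-3p outnumbered miR-145a-5p in all 8 libraries. There were 170, 123, 214 and 142 counts of miR-143-3p for each count of miR-145a-5p in HFrD replicates 1 to 4, against 160, 213, 414 and 165 in chow replicates 1 to 4. Chow replicate 3, with 15 counts of miR-145a-5p, had the highest ratio, and the groups overlapped. The passenger arm miR-143-5p had 3, 2, 3 and 5 counts in HFrD. In chow it had 4 counts in replicate 2 and 2 in replicate 3, and blanks in replicates 1 and 4, where values below 2 are not listed. A difference between diets could not be resolved at this depth (exact two-sided permutation p = 0.200 on CPM, n = 4 each). Summed over the 8 libraries, 45411 counts of miR-143-3p stood against 19 of miR-143-5p, a ratio of 2390 (95% exact interval 1530 to 3970, for counting error only). With each blank read as 1 count the ratio was 2162. On the log2 scale, 5p over 3p of Mir143 was −10.70, −11.13, −10.57 and −9.98 in HFrD, against −13.17, −10.12, −11.20 and −13.06 in chow, where the 2 lowest values are those of the blanks.

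miR-199a-3p, the most abundant arm of the miR-199 hairpins, had 180, 224, 236 and 207 counts in HFrD, against 187, 164, 144 and 149 counts in chow. In CPM these were 115, 192, 148 and 156 in HFrD, against 149, 139, 112 and 133 in chow. HFrD replicates 2 and 4 lay above all chow libraries, while HFrD replicate 1 lay below 3 of them. The means were 153 ± 31.5 CPM in HFrD and 133 ± 15.7 CPM in chow (SD, n = 4 each). edgeR put the log2 fold change at 0.19 ± 0.15 (SE; adjusted p = 0.470), with a 95% interval from −0.12 to 0.51, so that a level up to 1.42-fold higher or 1.09-fold lower in HFrD is within it. Without HFrD replicate 2 the estimate was 0.07, and without chow replicate 3 it was 0.11. It rose to 0.32 without HFrD replicate 1 and to 0.31 over library totals.

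miR-199a-5p, from the same Mir199a hairpins, had 81, 68, 61 and 78 counts in HFrD, against 74, 57, 78 and 64 counts in chow. This gave 51.9, 58.3, 38.3 and 58.9 CPM in HFrD, against 58.9, 48.4, 60.7 and 57.0 CPM in chow. HFrD replicate 3 was the lowest of all, and the other libraries lay close together. The means were 51.9 ± 9.55 CPM in HFrD and 56.2 ± 5.44 CPM in chow (SD, n = 4 each), for which edgeR put the log2 fold change at −0.13 ± 0.17 (SE; adjusted p = 0.647) with a 95% interval from −0.49 to 0.24. Over library totals the estimate was −0.0022. miR-199b-5p, the product of Mir199b, had 9, 12, 3 and 6 counts in HFrD, against 11, 7, 6 and 11 counts in chow, and did not pass the filter on low counts. Its mean was 5.62 ± 3.51 CPM in HFrD and 7.29 ± 2.39 CPM in chow (SD, n = 4 each), with overlapping groups (exact two-sided permutation p = 0.514).

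The 5p arms give the share of the 2 kinds of miR-199 locus. miR-199b-5p made up 30 of 318 miR-199 5p counts in HFrD, 9.43% (95% Wilson interval 6.69% to 13.1%, for counting error only), against 35 of 308 in chow, 11.4% (8.29% to 15.4%). Per library the share was 9.21% ± 4.43 in HFrD and 11.4% ± 3.23 in chow (SD, n = 4 each). It ran from 4.69% to 15.0% in HFrD and from 7.14% to 14.7% in chow, so the spread within a diet was wider than the distance between them. Mir199b thus gave the smaller part of the counted miR-199 5p arms in all 8 libraries, as far as the alignment separates the pair.

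The 3p arm of miR-199 was the more abundant one in every library. Against the sum of both 5p arms, which come from the same 3 loci, the 3p counts were 2, 2.8, 3.69 and 2.46 times as high in HFrD replicates 1 to 4, and 2.2, 2.56, 1.71 and 1.99 times as high in chow replicates 1 to 4. HFrD replicate 3 had the highest ratio and chow replicate 3 the lowest, with overlapping groups. On the log2 scale, with 0.5 CPM added to each arm, miR-199a-5p over miR-199a-3p averaged −1.55 ± 0.348 in HFrD and −1.23 ± 0.267 in chow (SD, n = 4 each). The difference of −0.31 (SE 0.24, adjusted p = 0.411, limma) had a 95% interval from −0.82 to 0.19. Of the 24 hairpins with both arms past the filter, 0% were called by limma after adjustment and 5 had an unadjusted p under 0.05 (20.8%), and the miR-199a hairpins were not among these 5.

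Mir214 was read mainly from its 5p arm, which is usually treated as the passenger, while miR-214-3p is the arm for which targets in stellate cells and muscle are mostly described. miR-214-3p had 2 counts in HFrD replicate 1 and blanks in HFrD replicates 2, 3 and 4, against 2 counts in chow replicate 2, 4 in chow replicate 3 and blanks in chow replicates 1 and 4. miR-214-5p had values in all libraries, with 32, 30, 32 and 27 counts in HFrD, against 25, 30, 21 and 35 counts in chow. Its means were 21.7 ± 2.69 CPM in HFrD and 23.2 ± 6.49 CPM in chow (SD, n = 4 each), for which edgeR put the log2 fold change at −0.10 ± 0.24 (SE; adjusted p = 0.801). Summed over the 8 libraries the arms had 232 counts for 5p and 8 for 3p, a ratio of 29 (95% exact interval 14.5 to 68, for counting error only). Reading each of the 5 blanks of miR-214-3p as 1 count gave 17.8. Unequal capture of the arms, which would bear on this and the other arm ratios, was not tested. miR-214-3p was at or near the smallest value listed in every library, so it could not be compared between diets at this depth (exact two-sided permutation p = 0.429 on CPM, n = 4 each, smallest p the design allows 0.0286). The miR-199 hairpins as a whole showed the other preference.

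The counts of miR-143-3p, miR-199a-3p and miR-214-5p kept that order, from high to low, within each library. By contrast, miR-145a-5p lay above miR-214-5p in only 4 of the 8 libraries. miR-143-3p had 35.0, 25.8, 24.5 and 27.5 counts for each count of miR-199a-3p in HFrD, against 30.9, 31.1, 43.1 and 32.1 in chow. Chow replicate 3 had the highest ratio, and HFrD replicate 1 lay among the chow libraries while the other 3 HFrD libraries lay below all of them. miR-199a-3p had 5.62, 7.47, 7.38 and 7.67 counts for each count of miR-214-5p in HFrD, against 7.48, 5.47, 6.86 and 4.26 in chow, again with overlapping groups. The Dnm3os transcript carries one hairpin of each, while the miR-199a-3p count also holds the output of Mir199a-1 and Mir199b.

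Set among the 101 hairpins with both arms in the table, Mir143 ranked 4th from the end most used on the 3p side, with log2 of 5p over 3p counts at −11.22. Mir199b was at −4.52 when all shared 3p counts were laid to it and the Mir199a hairpins were at −1.41, so both values are lower limits of the true ratio. Mir214 was at 4.86. The 3p arm was the higher one in 36.6% of these hairpins, and the median was 2.17 towards 5p. Arms that several hairpins share were counted in full for each of them. Mir25, Mir148b and Mir101a, which ranked ahead of Mir143, rest on 2, 5 and 4 counts of the 5p arm. With blanks read as 1 count, 3p over 5p was 2375 for Mir25, 2162 for Mir143, 1437 for Mir27b, 1412 for Mir148b and 1039 for Mir101a. The value of Mir27b rests on 53 counts of the 5p arm, without blanks.

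**Figure D2:**
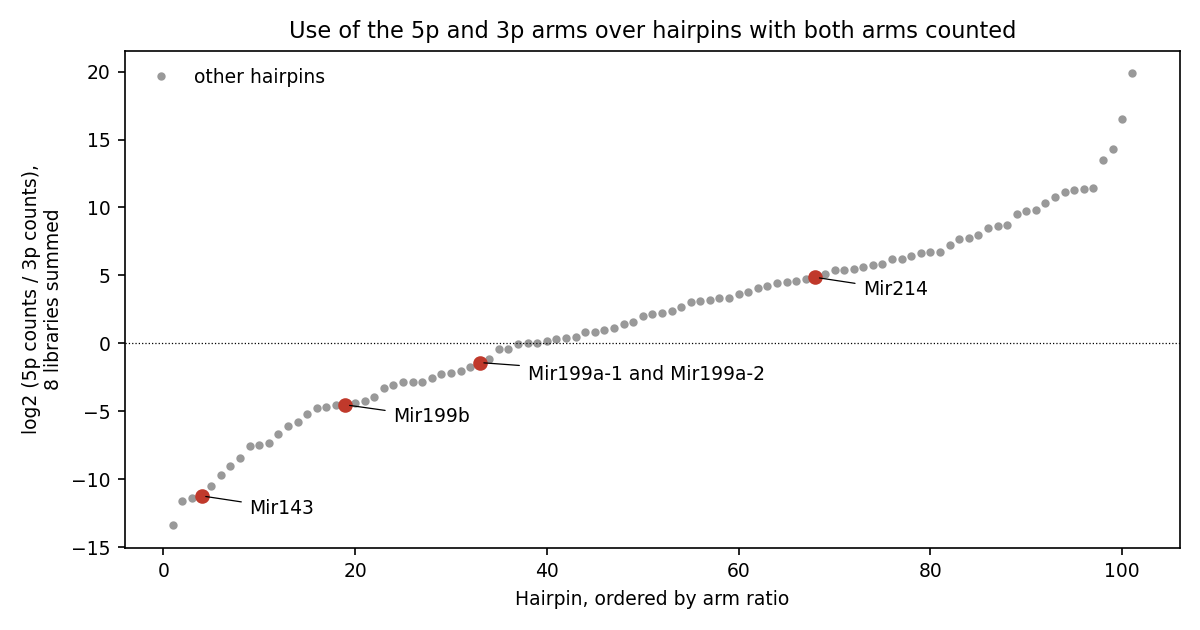
Log2 of 5p over 3p counts, summed over the 8 libraries, for 101 hairpins in order of the ratio, with the hairpins of the members in red. Mir143 lies near the 3p end at −11.22, the miR-199 hairpins lie on the 3p side, and Mir214 lies on the 5p side at 4.86.

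**Figure D3:**
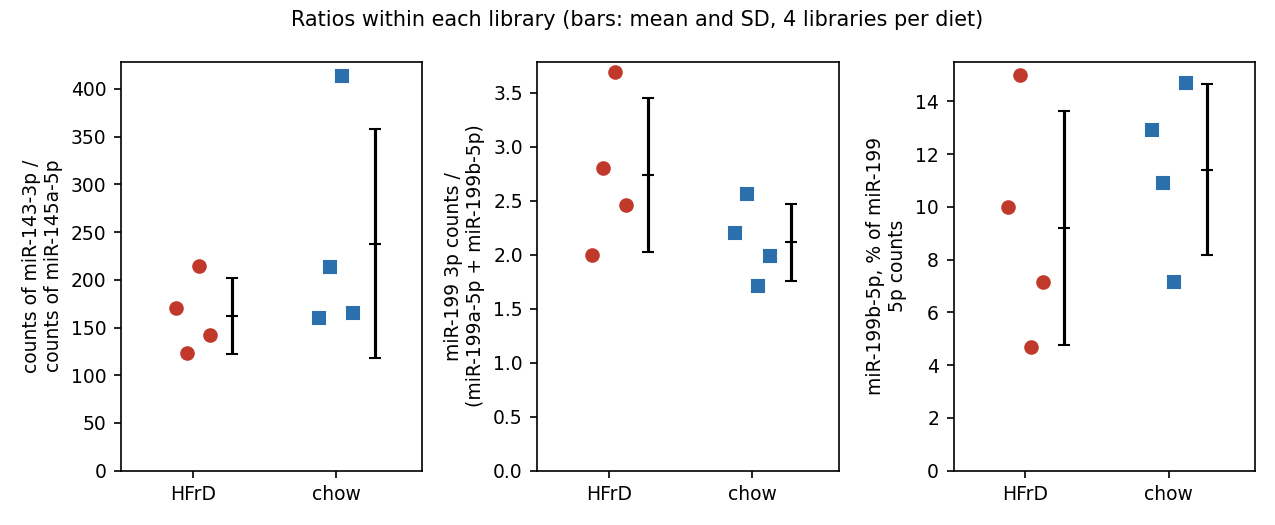
Ratios of counts within each of 4 HFrD and 4 chow libraries: miR-143-3p to miR-145a-5p, miR-199 3p to both miR-199 5p arms, and miR-199b-5p as a percentage of miR-199 5p counts, with mean and SD. Each ratio overlaps between the diets, and chow replicate 3 is highest in the first panel at 414 and lowest in the second at 1.71.

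Over the whole table, 170 sequences passed the filter and edgeR called 10 of them (5.88%) at an adjusted p under 0.05, 4 higher (2.35%) and 6 lower (3.53%) in HFrD. Over library totals, which moved the median of all miRNAs to 0.13, the split was 17 higher and 6 lower. Of the 7 members 4 passed the filter, and 0 of the 4 were called. None of the 4 had an unadjusted p under 0.05, against 40 of the 170 (23.5%), and DESeq2 called 0 as well. With 4 members tested, a background of 5.88% leads to few or no calls, so the count is not a result about the members. Groups did not overlap in CPM for 0 of the 4 members tested, against 24 of the 170 tested sequences (14.1%). With 4 members, this count is likewise not a result about the members. The 3 members short of the filter also had overlapping groups. The log2 fold changes were positive for miR-145a-5p and miR-199a-3p and negative for miR-143-3p and miR-199a-5p, with a median of 0.05 beside 0.01 over all miRNAs tested. With TMM factors, members of one hairpin or locus had estimates of opposite sign, but each 95% interval held 0. Over library totals miR-143-3p turned to 0.03, the same sign as miR-145a-5p at 0.46. Without chow replicate 4, the library that stood apart, the estimates with TMM factors were 0.41 for miR-145a-5p and 0.16 for miR-199a-3p. They were −0.14 for miR-143-3p and −0.15 for miR-199a-5p, and none was called.

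**Figure D4:**
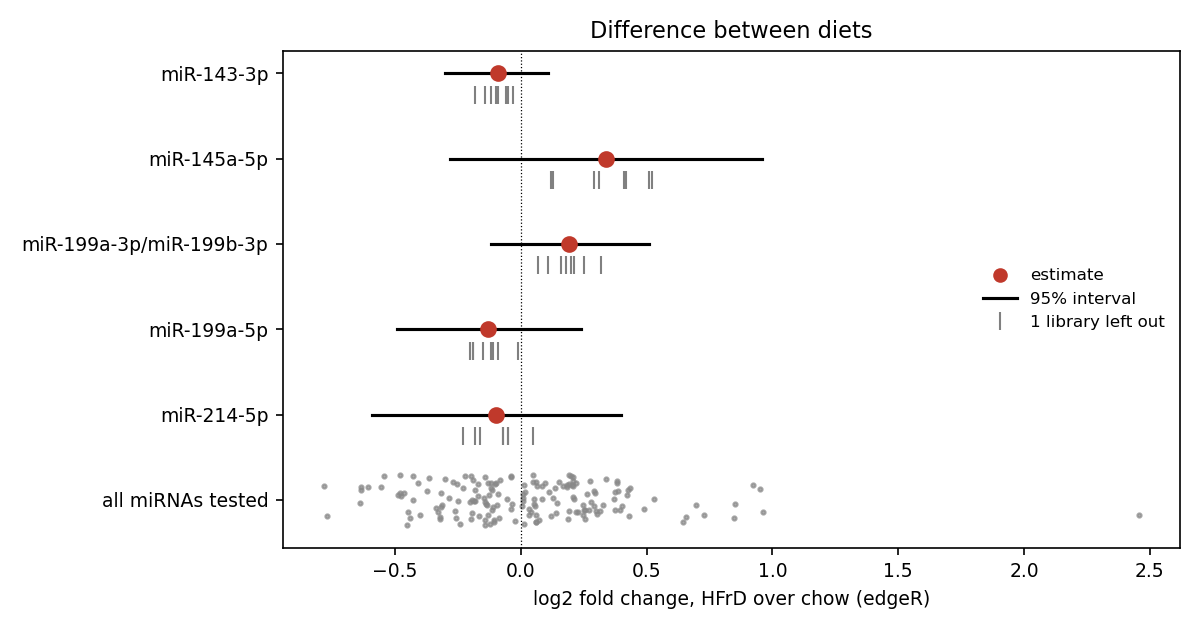
Log2 fold change of HFrD over chow from edgeR with 95% intervals for the 4 members tested and for miR-214-5p, estimates with 1 library left out as grey ticks, and all 170 miRNAs tested as dots. Each interval spans 0, and the widest belongs to miR-145a-5p, from −0.28 to 0.96.

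Summed over its members, miR-143/miR-145 was at 4259.8 ± 566 CPM in HFrD and 4527 ± 256 CPM in chow, and miR-199/miR-214 at 211 ± 38.2 CPM in HFrD and 198 ± 14.9 CPM in chow (SD, n = 4 each; sums of chosen members, not tested). The second sum is nearly all miR-199, since miR-214-3p gave 8 counts over the 8 libraries. It leaves out miR-214-5p, which is not a member and had 232 counts. Over library totals the direction of the first sum turned, with 4456 ± 686 CPM in HFrD and 4347 ± 415 CPM in chow, while the second was at 219.8 ± 39.3 CPM in HFrD and 190.1 ± 21.5 CPM in chow (SD, n = 4 each). Without chow replicate 4, on the TMM scale, the chow means were 4608 ± 243 CPM and 197 ± 18.2 CPM (SD, n = 3). The SD was larger within HFrD than within chow for both sums, a difference that was not tested. HFrD replicate 2 was highest for both, at 4994 and 260.4 CPM. That library was also highest for the erythroid miR-451a, with 69.4 CPM, where replicates 1, 3 and 4 had 30.7, 35.8 and 49.9 CPM, and it was the shallowest of the 8. The part of blood content or depth in its values was not tested.

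To see how far members vary together over livers, 6 pairs were correlated over the 8 samples on log2 CPM with a pseudocount of 0.5. miR-143-3p with miR-145a-5p had Pearson's r = 0.24 (exact permutation p = 0.578, adjusted p = 0.878) and Spearman's rho = 0.31 (exact permutation p = 0.462, adjusted p = 0.644). Without the 2 samples farthest from the median of miR-143-3p, r was −0.59, and within diets r was 0.42. With CPM over library totals r was 0.47, and 0.46 without the 2 samples farthest on that scale, so the sign without the farthest samples depends on the scaling. miR-199a-3p with miR-199a-5p, arms of the same hairpins, had r = 0.00 (exact permutation p = 0.993, adjusted p = 0.993) and rho = 0.02 (exact permutation p = 0.977, adjusted p = 0.977), again with 0.00 without the 2 farthest and 0.14 within diets. Over library totals r was 0.21 (exact permutation p = 0.598, adjusted p = 0.718) and rho was 0.57 (exact permutation p = 0.151, adjusted p = 0.295), with r = 0.24 without the 2 farthest. miR-143-3p with miR-199a-3p, from different chromosomes, had r = 0.21 (exact permutation p = 0.626, adjusted p = 0.878) and rho = 0.26 (exact permutation p = 0.536, adjusted p = 0.644), with −0.06 without the 2 farthest and 0.41 within diets. Over library totals r was 0.42, and 0.56 without the 2 farthest. The remaining pairs hold an arm with blanks. miR-199a-3p with miR-214-3p had r = −0.73 (exact permutation p = 0.0417, adjusted p = 0.170) and rho = −0.74 (exact permutation p = 0.0536, adjusted p = 0.232), with −0.62 without the 2 farthest and −0.68 within diets. miR-145a-5p with miR-214-3p had r = −0.69 (exact permutation p = 0.0565, adjusted p = 0.170) and rho = −0.68 (exact permutation p = 0.0774, adjusted p = 0.232), with −0.31 without the 2 farthest and −0.64 within diets. These 2 rest on 8 counts of miR-214-3p in 3 libraries, and with miR-214-5p in its place r was 0.37 and 0.54. miR-143-3p with miR-143-5p had r = −0.15 (exact permutation p = 0.731, adjusted p = 0.878) and rho = −0.28 (exact permutation p = 0.505, adjusted p = 0.644), with −0.19 without the 2 farthest and 0.05 within diets. None of the 6 pairs had an adjusted p under 0.05 on either scale.

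Among the 159 other named sequences tested, those nearest to miR-143-3p in pattern were taken by the root mean square difference of log2 CPM, centred on its mean over the 8 samples. They were miR-100-5p, a miRNA with a let-7-containing host transcript, at 0.10, miR-148a-5p at 0.12 and let-7e-5p at 0.13, beside a median of 0.28 over all 159. For miR-199a-3p they were miR-322-5p at 0.11, miR-29a-3p, which represses collagen genes, at 0.12 and miR-125b-5p at 0.13, beside a median of 0.32. The measure favours miRNAs that hardly vary, as miR-143-3p itself had a root mean square deviation of only 0.135, beside 0.232 for miR-199a-3p. miR-322-5p had only 8 to 13 counts per library, so its place as the nearest is uncertain.

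Other miRNAs of stromal cells were read from a list of 17 names, of which 15 were measured and 13 passed the filter with miR-199a-3p left out as a member. None of the 13, which include miR-214-5p, was called in either direction, beside 5.88% over all miRNAs tested. At that share 13 miRNAs give few or no calls. Their median log2 fold change was 0.00, beside 0.01 over all miRNAs tested. Single estimates in the list ran from −0.48 for miR-29b-3p to 0.65 for miR-31-5p (adjusted p = 0.281 and 0.157, edgeR). The most abundant were miR-21a-5p, which rises in many injured tissues, with its log2 fold change at 0.02 ± 0.12 (SE; adjusted p = 0.928, edgeR), and miR-100-5p at −0.12 ± 0.083 (SE; adjusted p = 0.412, edgeR). miR-100-5p was at 1895 ± 97.4 CPM in HFrD and 2065 ± 91.5 CPM in chow (SD, n = 4 each), and its groups did not overlap, although the highest HFrD library and the lowest chow library both rounded to 1964 CPM. Several of these, miR-21a-5p among them, are also made by hepatocytes and other cells, so the list does not measure stroma alone.

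Lists for the other cells of the tissue are read beside the 5.88% called over all miRNAs. The hepatocyte list had 1 of 6 lower, miR-122-3p (log2 fold change −0.64, adjusted p = 0.0109, edgeR), and the endothelial list 1 of 3 lower, miR-126a-3p (−0.43, adjusted p = 0.0123, edgeR). The summed endothelial level was 6006 to 6992 CPM in HFrD and 7562 to 10206 CPM in chow. Most of that sum is miR-126a-3p itself, with means of 6115 CPM in HFrD and 8238 CPM in chow. miR-139-5p, also of the endothelial list, had a log2 fold change of −0.04 (adjusted p = 0.823, edgeR). The hepatocyte sum overlapped, with 582168 to 629228 CPM in HFrD and 617049 to 705448 CPM in chow. The most abundant hepatocyte miRNAs were miR-148a-3p and miR-122-5p, with log2 fold changes of −0.14 and −0.26 (adjusted p = 0.396 and 0.0985, edgeR), and miR-126a-5p was at −0.12 (adjusted p = 0.504, edgeR). None was called of 4 biliary, 1 leukocyte, 4 erythroid and 2 striated muscle miRNAs tested. In log2 fold change, the most abundant of these lists were at the following values: miR-200a-3p (−0.20) and miR-200b-3p (−0.18), miR-150-5p (0.06), miR-451a (0.06) and miR-486a-5p, which shares its sequence with miR-486b-5p (0.25), and miR-1a-3p (−0.17) and miR-206-3p (−0.24). The striated muscle sum was 550 to 633 CPM in HFrD and 541 to 736 CPM in chow, above that of miR-199/miR-214, and its part in the level of the miR-143/miR-145 pair was not tested.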

How the data were processed

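The authors deposited raw tag counts per mature miRNA as whole numbers for 8 libraries, per the file headers. Per the submitters' processing notes the tools named are cutadapt 1.9.2 (a read trimmer) and Novoalign 3.02.12 (an aligner), and the build is mm10. The sources used here do not state the rule for reads with several matches or a small RNA selection, and the labels' protocols describe a ribosome-depleted total RNA library. The authors also deposited normalized values, rounded and treated here as a score. Over entries with high counts, summed raw counts were 4.21 to 6.19 times the summed normalized values, depending on the library. Whether each entry followed the ratio of its library was not tested. The 484 entries were merged by mature sequence into 443, of which 66 were predicted by the authors. Blank cells (35.3%, smallest listed value 2) were read as 0. One count was worth 0.610 to 0.893 CPM over library totals, without TMM scaling. Intervals on counts cover counting error only, since no molecular identifiers are mentioned.

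Diets were compared on the counts with edgeR 4.0.16 (quasi-likelihood, TMM factors, filterByExpr with a minimum count of 10, two-sided, Benjamini-Hochberg over 170 sequences) in R 4.3.3. Intervals are the log2 fold change ± SE times the t quantile. Arm ratios used limma 3.58.1 over 24 hairpins, with 0.5 CPM added. Single values used the exact permutation test over 70 assignments, and correlations all 40320 pairings. DESeq2 1.42.0, other scalings and filters, left-out libraries and a replicate block were alternatives. The scripts were tested on simulated data. Positions are from GENCODE M21 and RefSeq (GRCm38). Members, lists and the naming rule (all members, the 3 nearest to miR-143-3p and miR-199a-3p, the 2 most abundant of each list) were chosen with earlier results of these data known. miR-214-5p was added as the other arm of a member.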

Additional observations from a re-analysis of the deposited data

Results flagged for a closer look

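In each group of 4 libraries, a value far from the other 3 was looked for with Dixon's ratio over 38 groups of member levels and ratios, and 6 were found. Chance alone flags about 1 in 20 independent groups, but these groups share counts and some hold blanks read as 0, so the tally is no test. HFrD replicate 4 was high for miR-143-5p at 3.78 CPM, a value that rests on 5 counts. HFrD replicate 1 was the one HFrD library with a listed value of miR-214-3p, at 1.28 CPM from 2 counts beside 3 blanks, and its log2 ratio of the Mir214 arms, 3.56, which uses those 2 counts, was low. HFrD replicate 2 was high for miR-214-5p with 25.7 CPM, where the remaining HFrD values lay between 20.1 and 20.5 CPM. HFrD replicate 1 had a low ratio of miR-199a-3p to miR-214-5p counts, 5.62. Chow replicate 3 had a high ratio of miR-143-3p to miR-199a-3p counts, 43.1 against 30.9 to 32.1 in the other chow libraries.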

How the results depend on the processing

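No member was called under any of the 18 alternatives to the edgeR fit, with adjusted p from 0.157 to 0.991 over the 4 members tested. miR-145a-5p and miR-199a-3p kept their direction. miR-199a-5p stayed negative but was near 0 over library totals (−0.0022), on the normalized score (−0.02) and with upper quartile factors (−0.03), while miR-143-3p turned to 0.03 over library totals, 0.02 with limma on the authors' normalized score and 0.0044 with upper quartile factors, where the medians over all miRNAs were 0.13, 0.14 and 0.12. miR-214-5p turned to 0.03, 0.07 and 0.02 with these and to 0.05 without chow replicate 4. With 1 library left out, log2 fold changes ran from −0.18 to −0.03 for miR-143-3p, 0.12 to 0.52 for miR-145a-5p, 0.07 to 0.32 for miR-199a-3p, −0.20 to −0.01 for miR-199a-5p and −0.23 to 0.05 for miR-214-5p. Over all miRNAs 10 calls became 23 over library totals (17 higher, 6 lower), 22 without a filter, 18 with at least 10 counts in all 8 samples, 17 without predicted sequences, 3 with limma on the score and 1 with upper quartile factors. They ranged from 1 (without chow replicate 2) to 17 (without chow replicate 3), with 6 without HFrD replicate 4. Hairpins called by arm ratio went from 0 to 2 with 2 CPM added or with the replicate block, and from 0 to 1 without HFrD replicate 1 or chow replicate 1. The miR-199a arm ratio was not called and ran from −0.45 to −0.18. Same-numbered samples did not visibly deviate together (correlations −0.10 to 0.16, 1 of 4 numbers with its own as the best match). These numbers, also used for the replicate block, are those of the sample titles, and the authors' short sample names partly carry other numbers. No pairing by number was seen, although so few samples cannot exclude it. The replicate block gave 15 calls and −0.10 for miR-143-3p. The r of miR-143-3p with miR-143-5p turned to 0.11 over library totals, where r also moved to 0.47 for miR-143-3p with miR-145a-5p, 0.21 for miR-199a-3p with miR-199a-5p and 0.42 for miR-143-3p with miR-199a-3p. The summed miR-143/miR-145 level turned on that scale, to 4456 CPM in HFrD and 4347 CPM in chow. With miR-214-5p in place of miR-214-3p, chosen after seeing the data like reading blanks as 1 and the sums without chow replicate 4, r turned to 0.37 with miR-199a-3p and 0.54 with miR-145a-5p. The causes were not tested. Low counts limit miR-143-5p, miR-199b-5p and miR-214-3p.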
